A study of Mus musculus with 12 samples.

Results

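Pde2a, Gpr25 and Fndc1 are 3 of the 23234 genes and short RNAs listed in an RNA-seq table of mouse pre-selection thymocytes. They were chosen from their own values, as genes near 0 in wild-type libraries and strongly higher in Bcl11bm/m libraries that belong to no familiar T-lineage programme. Their levels in those groups are therefore given as a description, without a test. CD24hiTCRβlo CD4+CD8+ double-positive (DP) thymocytes of C57BL/6 background were sorted from newborn wild-type (5 libraries), newborn Bcl11bm/m (3 libraries) and Bcl11bfl/fl:Cd4-Cre mice (4 libraries). Bcl11b encodes a zinc-finger transcription factor of the T cell lineage. The Bcl11bm allele carries a frameshift and gives a truncated protein without the last zinc finger, it is a hypomorphic germline allele, and homozygous mice die as neonates. In Bcl11bfl/fl:Cd4-Cre mice both alleles are floxed and Cre driven by Cd4 regulatory elements deletes them from the DP stage, so that protein made before deletion can remain. The labels give no age for these mice. Any comparison with Bcl11bfl/fl:Cd4-Cre may thus also be one of age, and that between the mutants differs in allele and in timing as well. Genotypes follow the sample titles and the overall design, since other genotypes are named in the descriptions of wild-type samples and of samples with Cd4-Cre.

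Pde2a encodes a cyclic nucleotide phosphodiesterase that hydrolyses both cAMP and cGMP and is stimulated by cGMP, so that it links the levels of these second messengers. In T cells cAMP acts mainly through protein kinase A and dampens signals from the T cell receptor. Gpr25 encodes an orphan-type class A G protein-coupled receptor related to Gpr15, a homing receptor, and is known from T cells and NK cells. Fndc1 encodes a protein with fibronectin type III domains, also called AGS8, that was described as an activator of G protein signalling acting on the βγ subunits. None of these genes is among the markers used to define steps of thymocyte development.

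Stretches of 300 bases around annotated start sites (250 bases before the start and 50 from it on) are shown for each gene, since Runx proteins take part in repressing lineage genes in DP thymocytes. They are RefSeq sequences from the GRCm38.p6 table, placed on NCBIM37 by exact match, and are written 5′ to 3′ on the strand of the gene. Capitals mark the Runx words ACCACA and ACCGCA and the word TGACCA, which the related protein Bcl11a binds, each on either strand. Of the 5 annotated Pde2a starts, number 3 is shown because it held most Runx words.
Pde2a, chr7:108599280-108599579, plus strand: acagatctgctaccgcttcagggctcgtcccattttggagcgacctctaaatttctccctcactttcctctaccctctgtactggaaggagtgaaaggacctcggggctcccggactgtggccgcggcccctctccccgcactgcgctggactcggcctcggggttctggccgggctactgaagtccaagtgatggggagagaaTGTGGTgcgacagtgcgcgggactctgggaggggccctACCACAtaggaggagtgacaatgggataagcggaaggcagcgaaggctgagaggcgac
Gpr25, chr1:138157454-138157753, minus strand: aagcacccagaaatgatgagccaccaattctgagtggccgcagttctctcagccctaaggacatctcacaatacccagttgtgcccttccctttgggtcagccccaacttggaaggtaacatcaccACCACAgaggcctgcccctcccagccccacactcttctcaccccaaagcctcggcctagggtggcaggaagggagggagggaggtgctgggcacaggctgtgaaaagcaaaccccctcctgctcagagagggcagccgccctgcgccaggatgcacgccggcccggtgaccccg
Fndc1, chr17:8020118-8020417, minus strand: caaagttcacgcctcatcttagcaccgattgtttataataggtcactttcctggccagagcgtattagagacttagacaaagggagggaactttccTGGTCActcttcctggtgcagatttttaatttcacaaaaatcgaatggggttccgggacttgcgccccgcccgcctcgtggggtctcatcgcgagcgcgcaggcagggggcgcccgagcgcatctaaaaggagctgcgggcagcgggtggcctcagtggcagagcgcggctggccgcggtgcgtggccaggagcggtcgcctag
The Pde2a stretch held 2 Runx words, TGTGGT at -46 and ACCACA at -8 from the start, and the overlapping stretch of the next Pde2a start shared the ACCACA match. The other 3 Pde2a stretches held none. Gpr25 held ACCACA at -124. Fndc1 held no Runx word and held TGGTCA, the reverse complement of TGACCA, at -154. Runx words were present in 22.4% and TGACCA in 13.6% of 32851 promoter stretches of this length. The E box words CAGCTG and CAGGTG, which E proteins bind, were in 32.9% of them, and of the 7 stretches around these genes a single one, at the last start of Pde2a, held such a word (CAGGTG at -117). CpG dinucleotides numbered 18 in the Pde2a stretch, 8 in that of Gpr25 and 25 in that of Fndc1, and 29.7%, 48.6% and 18.4% of promoter stretches had as many. These matches describe the letters of the stretches and not binding.

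Depth was estimated from the spacing of low values, at 3960000 to 6920000 fragments in wild-type, 2720000 to 4200000 in Bcl11bm/m libraries and 10800000 to 45380000 in those of Bcl11bfl/fl:Cd4-Cre mice. The deepest libraries are thus those of 1 genotype, and a separate preparation cannot be told apart from the genotype. Bcl11b itself was listed at 132 to 292 FPKM in wild-type, 430 to 482 FPKM in Bcl11bm/m libraries and 115 to 140 FPKM after Cd4-Cre deletion, values over the whole gene that do not separate exons or alleles. Differences are given on the log2(FPKM + 1) scale, which understates changes of weakly expressed genes. Testing was limited to 10780 features whose average across all libraries reached 1 FPKM, and all 3 genes passed this filter, Fndc1 through the Bcl11bm/m libraries only.

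Pde2a lies at chr7:108570212-108661340 on the plus strand (NCBIM37). The wild-type libraries, replicates 1 to 5, had 0.0373, 0.0839, 0.0650, 0.507 and 0 FPKM of it. Bcl11bm/m replicates 1 to 3 had 50.3, 52.3 and 56.6 FPKM. These 3 libraries lay within a narrow band, far above the highest wild-type library. Replicates 1 to 4 of Bcl11bfl/fl:Cd4-Cre had 29.96, 2.83, 95.4 and 38.2 FPKM. All 4 of these libraries lay above every wild-type library, as was the case for 5.44% of all features tested, and they ranged from far below to above the Bcl11bm/m libraries.
Averaged over libraries, Pde2a expression in FPKM was 0.139 ± 0.208 (SD, n = 5) in wild-type, 53.1 ± 3.24 (SD, n = 3) in Bcl11bm/m and 41.6 ± 38.9 (SD, n = 4) in Bcl11bfl/fl:Cd4-Cre thymocytes. The wild-type values correspond to an estimated 12 fragments over 5 libraries, 8 of them in replicate 4. Bcl11bfl/fl:Cd4-Cre thymocytes exceeded wild-type by 4.52 on the log2 scale (standard error 0.73). The wild-type libraries of this difference also entered the choice of the gene, while the Bcl11bfl/fl:Cd4-Cre libraries did not. No test of it is therefore given. The difference of Bcl11bm/m from wild-type, the contrast that chose the gene, was 5.59 and ranked 4 among the 10780 features (14.6% of them had all Bcl11bm/m libraries above all wild-type libraries), and that of Bcl11bfl/fl:Cd4-Cre ranked 19. Between the mutants the libraries overlapped, with Bcl11bm/m higher by 1.06 on average, or by 0.14 without Bcl11bfl/fl:Cd4-Cre replicate 2. In bulk libraries, fewer cells expressing a gene and less RNA per cell cannot be told apart.

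Gpr25 lies at chr1:138155491-138157450 on the minus strand. Its level was low but above 0 in each wild-type library, at 0.409, 1.93, 0.570, 0.694 and 0.936 FPKM (replicates 1 to 5). Bcl11bm/m replicates 1 to 3 had 111, 67.1 and 61.5 FPKM. Each of these values was more than 10 times the highest value in any library of the other genotypes. The Bcl11bfl/fl:Cd4-Cre libraries had 4.02, 2.48, 1.81 and 1.51 FPKM (replicates 1 to 4), of which replicates 3 and 4 lay below wild-type replicate 2.
Mean Gpr25 in FPKM was 0.908 ± 0.604 (SD, n = 5) in wild-type, 79.99 ± 27.2 (SD, n = 3) in Bcl11bm/m and 2.46 ± 1.12 (SD, n = 4) in Bcl11bfl/fl:Cd4-Cre thymocytes, so that the Bcl11bfl/fl:Cd4-Cre mean was 3.07% of the Bcl11bm/m mean. Against wild-type, Bcl11bfl/fl:Cd4-Cre thymocytes differed by 0.85 on the log2 scale (standard error 0.26). As for Pde2a, the wild-type libraries of this difference also entered the choice of the gene, so no test is given. The difference ran from 0.66 to 1.02 with a library left out and from 0.77 to 1.42 under the other alternatives. The estimated fragments numbered 45 in wild-type and 458 in Bcl11bfl/fl:Cd4-Cre libraries, 321 of the latter in replicate 1, the deepest library. The difference of Bcl11bm/m was 5.41 from wild-type, rank 6 of all features, and 4.55 from Bcl11bfl/fl:Cd4-Cre, rank 2, without overlap of the libraries. Both ranks use the Bcl11bm/m libraries that entered the choice of the gene. No overlap between the mutants, in either direction, was seen for 26.7% of all features, and 10.2% were called.

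Fndc1 lies at chr17:7931434-8020167 on the minus strand. It was listed at 0 in wild-type replicates 1, 3, 4 and 5 and at 0.0286 FPKM in replicate 2. Its level in Bcl11bm/m replicates 1 to 3 was 20.7, 13.4 and 11.3 FPKM. The wild-type libraries together held an estimated 1 fragment of this gene, against 317, 310 and 267 fragments in the Bcl11bm/m libraries. After Cd4-Cre deletion, replicates 1 to 4 had 0.0615, 0.0322, 0.212 and 0.0130 FPKM, an estimated 16, 2, 21 and 1 fragments. These libraries overlapped wild-type. The highest of them stayed below every Bcl11bm/m library, as was the case for 18.9% of all features tested.
Mean Fndc1 in FPKM was 0.00572 in wild-type, 15.1 ± 4.93 (SD, n = 3) in Bcl11bm/m and 0.0796 ± 0.0902 (SD, n = 4) in Bcl11bfl/fl:Cd4-Cre thymocytes, which is 0.527% of the Bcl11bm/m mean. Without Bcl11bfl/fl:Cd4-Cre replicate 3 that share was 0.236%. On the log2(FPKM + 1) scale Bcl11bfl/fl:Cd4-Cre differed from wild-type by 0.10. Both groups lay at the floor of this scale, so no test of that difference is given. The difference of Bcl11bm/m was 3.96 from wild-type, rank 24, and 3.86 from Bcl11bfl/fl:Cd4-Cre, rank 7. Both ranks use the Bcl11bm/m libraries that entered the choice and that alone let the gene pass the filter. They are given as a description only.

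**Figure D1:**
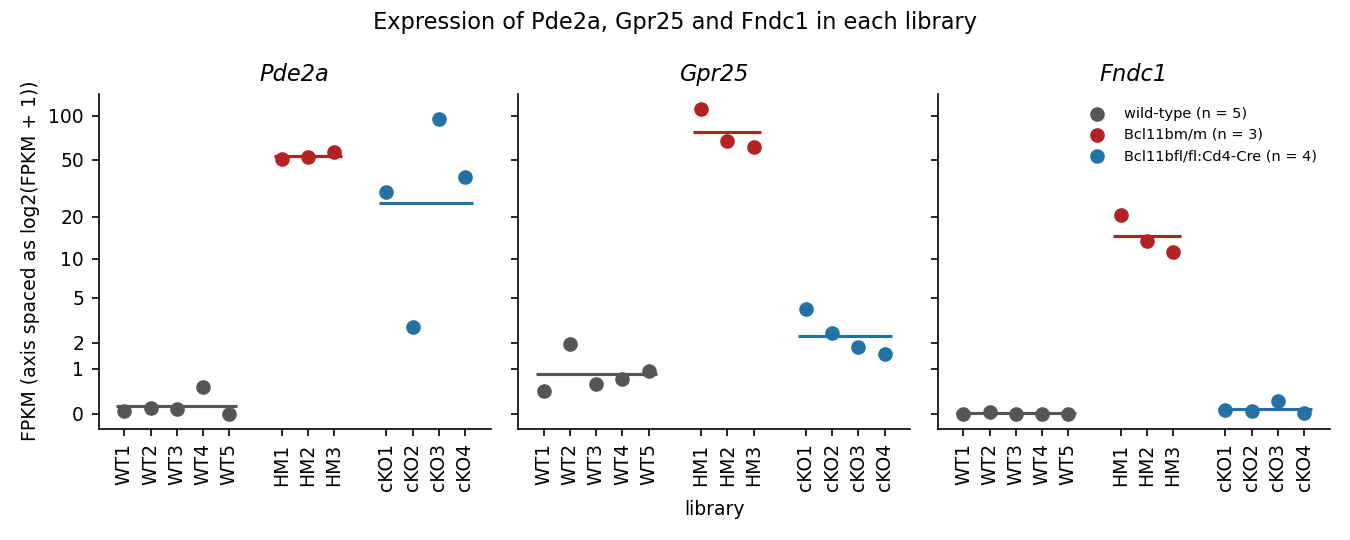
Level of Pde2a, Gpr25 and Fndc1 in each library (points) and group mean on the log2 scale (lines); the vertical axis is FPKM, spaced as log2(FPKM + 1). Pde2a was high in both mutants and ranged from 2.83 to 95.4 FPKM among Bcl11bfl/fl:Cd4-Cre libraries, whereas Gpr25 stayed at 4.02 FPKM or less and Fndc1 at 0.212 FPKM or less in them.

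The 3 genes thus differed in the second mutant. Across the 12 libraries, Gpr25 and Fndc1 correlated with each other with Pearson's r of 0.979 and Spearman's rho of 0.940, while Pde2a correlated with Gpr25 at r = 0.670 (rho = 0.692) and with Fndc1 at r = 0.599 (rho = 0.844). By rank, Pde2a and Fndc1 were thus nearly as close as Pde2a and Zbtb7b, which encodes ThPOK (rho = 0.872). These correlations are across 3 genotypes that differ strongly and share libraries with the choice of the genes, so they describe the grouping. Within the Bcl11bm/m libraries, Gpr25 and Fndc1 were both highest in replicate 1 and lowest in replicate 3, and Pde2a had the opposite order.

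Zbtb7b, whose product is a factor of the CD4 helper lineage, was among the 5 genes most like Pde2a, with r = 0.979 over the 12 libraries. After Cd4-Cre deletion its values in replicates 1 to 4 were 33.1, 9.44, 56.6 and 23.8 FPKM. Like Pde2a it was highest in replicate 3 and lowest in replicate 2, while replicates 1 and 4 stood in the opposite order. The range among these libraries was wider for Pde2a, whose replicate 2 reached 5.34% of the Bcl11bm/m mean, against 20.5% for Zbtb7b. The other genes most like Pde2a were Ly6c1, a surface antigen of T cell subsets (r = 0.991), 2900026A02Rik (r = 0.984), Atp8b4, a lipid flippase (r = 0.983), and Appl2, an endosomal adaptor (r = 0.982). Ly6c1 had 47.2, 6.47, 145.8 and 36.1 FPKM in the same 4 libraries, and means of 86.7 FPKM in the Bcl11bm/m and 2.35 FPKM in the wild-type group.
Most like Gpr25 were Fndc1, Chd7, a chromatin remodeller (r = 0.978), Sbf2 (r = 0.976), Fes, a cytoplasmic tyrosine kinase (r = 0.971), and Kit, the receptor for stem cell factor (r = 0.969). Most like Fndc1 were Necab1 (r = 0.990), Ppap2b, a lipid phosphate phosphatase (r = 0.986), Ofcc1 (r = 0.984), Fes (r = 0.983) and Kank2 (r = 0.982). Mean Fes was 0.210 FPKM in wild-type, 13.2 FPKM in Bcl11bm/m and 0.806 FPKM in Bcl11bfl/fl:Cd4-Cre thymocytes. Each gene named here as like Gpr25 or Fndc1 had a Bcl11bfl/fl:Cd4-Cre mean of 1.18 FPKM or less. Ranked by Spearman's rho instead, 1, 1 and 0 of the 5 genes remained for Pde2a, Gpr25 and Fndc1, so the names beyond the grouping by genotype depend on the measure. By rho, Zbtb7b ranked 257 in likeness to Pde2a, and Atp8b4 ranked 1.

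**Figure D2:**
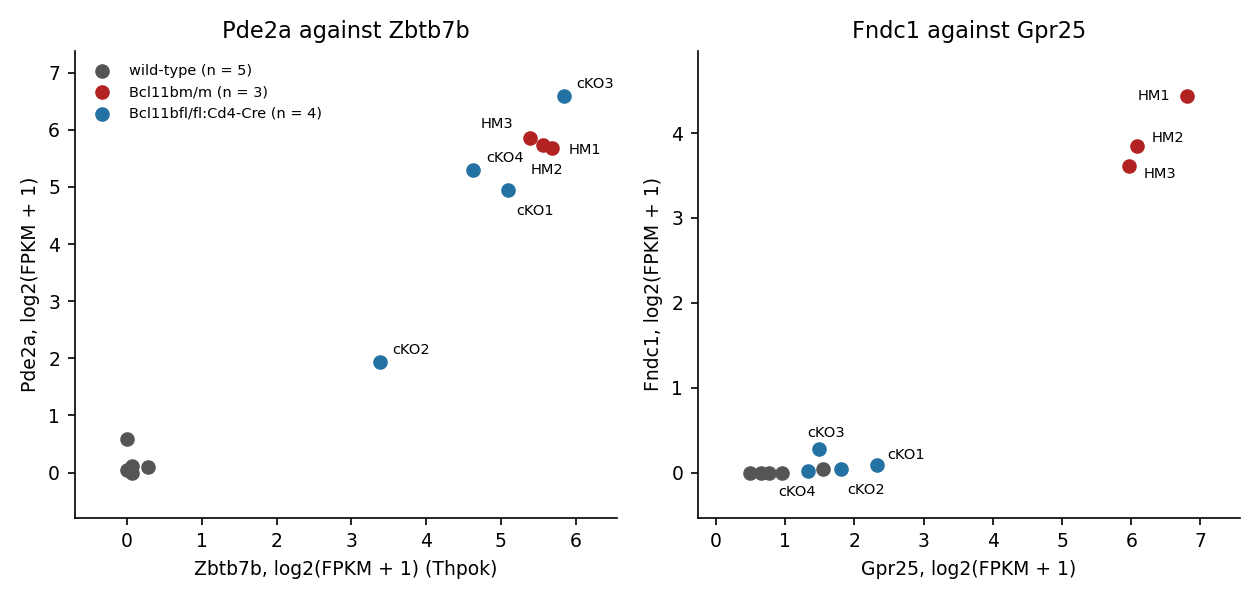
Pde2a against Zbtb7b (left) and Fndc1 against Gpr25 (right) in log2(FPKM + 1), each point a library coloured by genotype. On the left, Bcl11bfl/fl:Cd4-Cre replicates 1, 2 and 4 lie between the wild-type and Bcl11bm/m libraries, with replicate 2 lowest, and replicate 3 lies above the Bcl11bm/m libraries on both axes; on the right all 4 lie beside the wild-type libraries.

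To place the 3 genes among others with a like pattern, all listed genes below 1 FPKM in each wild-type library and at 10 FPKM or more in each Bcl11bm/m library were taken, limits set with earlier results known. There were 19 of 23234, among them Pde2a and Fndc1. Gpr25 fell just outside, since wild-type replicate 2 had 1.93 FPKM, and 63 genes were found with limits of 2 and 5 FPKM. Among the 19 genes, the Bcl11bfl/fl:Cd4-Cre mean as a share of the Bcl11bm/m mean ran from 0.527% for Fndc1, the lowest, to 124% for Cd160, a receptor of cytotoxic lymphocytes. Pde2a, at 78.3%, was second to Cd160, and Appl2 (71.0%), Zbtb7b (66.8%) and Atp8b4 (60.1%) followed. Without Bcl11bfl/fl:Cd4-Cre replicate 3 the share of Pde2a was 44.5% and ranked 4, after Cd160, Appl2 (51.9%) and Zbtb7b (48.1%). Below 10% with all libraries were Fndc1, which remained lowest whichever library was left out, Fes (6.09%, or 3.70% without replicate 3) and Cd163l1 (8.33%, or 2.53% without replicate 1), a scavenger receptor of γδ T cells. Bcl11bfl/fl:Cd4-Cre replicate 3 had the highest level of the 4 for 17 of the 19 genes, and replicate 2 had the lowest for 16. The order of these libraries seen for Pde2a was therefore common to genes of this pattern, and it held for Fndc1 at the top but not at the bottom, where replicate 4 was lowest.

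**Figure D3:**
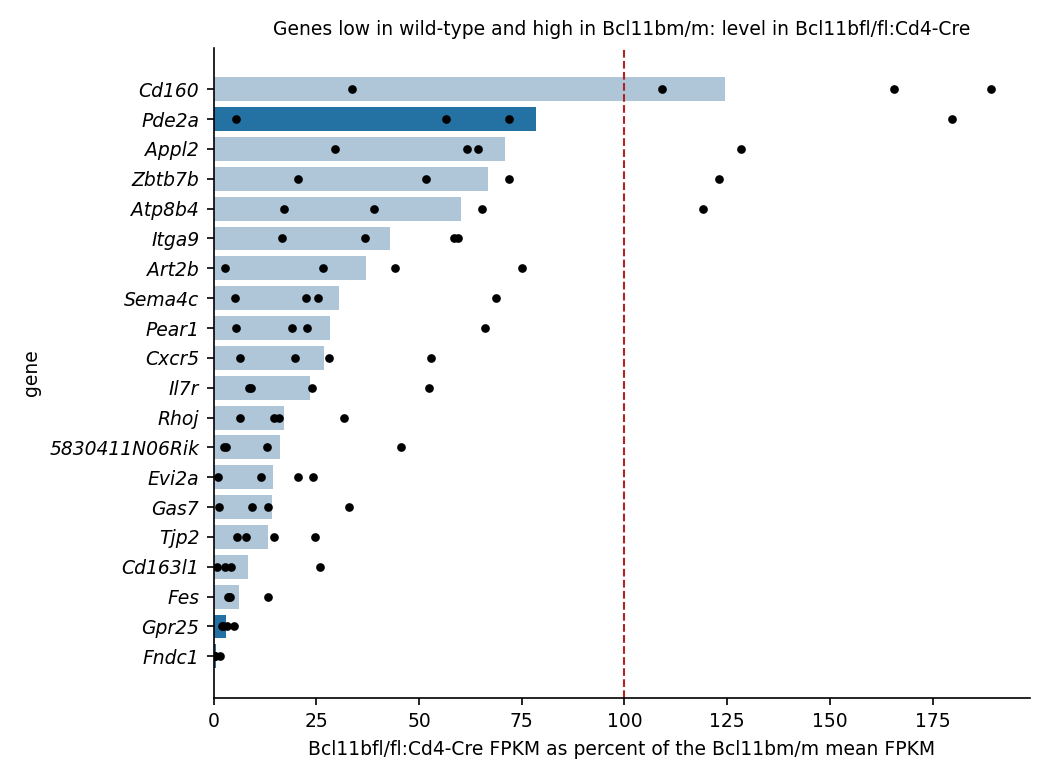
Level in Bcl11bfl/fl:Cd4-Cre thymocytes as percent of the Bcl11bm/m mean FPKM, as group mean (bars) and single libraries (points), for the 19 genes below 1 FPKM in wild-type and at 10 FPKM or more in Bcl11bm/m libraries, with Gpr25 added. The dashed line is the Bcl11bm/m mean; Fndc1 (0.527%) and Gpr25 (3.07%) lie at the bottom and Pde2a (78.3%, or 44.5% without replicate 3) is second from the top.

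Neighbouring genes were examined next, as the 5 nearest listed genes on each side of each gene. Of these 30 genes, 21 passed the filter. In Bcl11bm/m against wild-type, where 9.92% of all features were called higher and 7.39% lower, 4 of the 21 were higher and 2 lower. In Bcl11bfl/fl:Cd4-Cre against wild-type, where 4.65% of features were called higher and 9.86% lower, 3 were higher and 3 lower. The median difference of the neighbours was 0.31 and -0.04, beside -0.02 and -0.09 over all features.
On the right of Pde2a lie Art2a-ps, 39.6 kb away, and Art2b, 66.0 kb away. Art2 genes encode ADP-ribosyltransferases on the surface of T cells. Art2b was listed at a mean of 0.236 FPKM in wild-type, 48.2 FPKM in Bcl11bm/m (difference 5.31, adjusted p = 1.7e-05 by limma) and 17.9 FPKM in Bcl11bfl/fl:Cd4-Cre thymocytes (3.43, adjusted p = 0.0102 by limma). Art2a-ps rose from a mean of 0.188 to 17.1 FPKM with Bcl11bm/m (3.76, adjusted p = 4.21e-04 by limma) and to 30.3 FPKM after Cd4-Cre deletion (4.10, adjusted p = 0.00857 by limma). Reads of these closely related copies may have been divided between them by the counting, so their separate levels are uncertain. Without a filter on low values the Bcl11bfl/fl:Cd4-Cre call for Art2b was lost (adjusted p = 0.0535 by limma).
Further to the right, Inppl1, which encodes the phosphatase SHIP2, rose in Bcl11bfl/fl:Cd4-Cre thymocytes from 0.762 to 7.005 FPKM (2.23, adjusted p = 0.00538 by limma), and was at 2.53 FPKM in Bcl11bm/m thymocytes (1.12, adjusted p = 0.0542 by limma). Clpb lies between Art2b and Inppl1 and was not called in either mutant (-0.34 and -0.12). On the left, Arap1, 9.11 kb away, was the nearest neighbour and was not called (0.54, adjusted p = 0.0525 in Bcl11bm/m by limma). Fchsd2 fell in both mutants (-0.75 and -0.65, adjusted p = 0.00331 and 0.0129 by limma). Mir139, a microRNA within Pde2a, was listed at 0 in all 12 libraries.
Next to Gpr25, 24.65 kb away, lies 5730559C18Rik, now called Inava and linked to innate immune signalling. Wild-type replicates 1 to 5 had 0.256, 0.0575, 0.802, 0.347 and 0 FPKM of it. Bcl11bm/m replicates 1 to 3 had 8.84, 9.14 and 6.13 FPKM, and replicates 1 to 4 of Bcl11bfl/fl:Cd4-Cre had 0.247, 0.518, 0.182 and 0.131 FPKM. All Bcl11bm/m libraries lay above all others, and the other genotypes overlapped. The difference of Bcl11bm/m was 2.82 from wild-type and 2.82 from Bcl11bfl/fl:Cd4-Cre, while Bcl11bfl/fl:Cd4-Cre and wild-type differed by -0.003. This gene passed the filter through the Bcl11bm/m libraries only, and the other groups lay near the floor of the scale. No p-value is therefore given for it, though its calls for Bcl11bm/m enter the counts of neighbours. Camsap2, 7.25 kb away on the other side, differed between the mutants, with Bcl11bm/m higher (0.87, adjusted p = 0.00823 by limma) and missed the threshold against wild-type (0.52, adjusted p = 0.0524 by limma). Kif14, a mitotic kinesin, fell in both mutants (-0.85 in Bcl11bm/m and -1.67 in Bcl11bfl/fl:Cd4-Cre, adjusted p = 0.0131 and 0.00453 by limma), the former call being lost without Bcl11bm/m replicate 2 (0.0560).
Around Fndc1 the nearest tested genes were Tagap, 98.7 kb away, which was not called in either mutant, and Rsph3a, 118 kb away, which rose in Bcl11bm/m thymocytes from 7.18 to 16.5 FPKM (1.13, adjusted p = 0.0150 by limma, or 0.0637 without Bcl11bm/m replicate 1). Fgfr1op fell in Bcl11bfl/fl:Cd4-Cre thymocytes (-0.54, adjusted p = 0.0304 by limma), a call lost without the filter (0.0647) and in 7 of 9 fits with a library left out. In the direct comparison of the mutants, where 7.63% of all features were called higher and 2.6% lower in Bcl11bm/m, 3 of the 21 neighbours were higher and 1 lower. The calls of Rsph3a (higher) and Inppl1 (lower) were each lost without the filter and in 6 of 7 fits with a library left out.

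**Figure D4:**
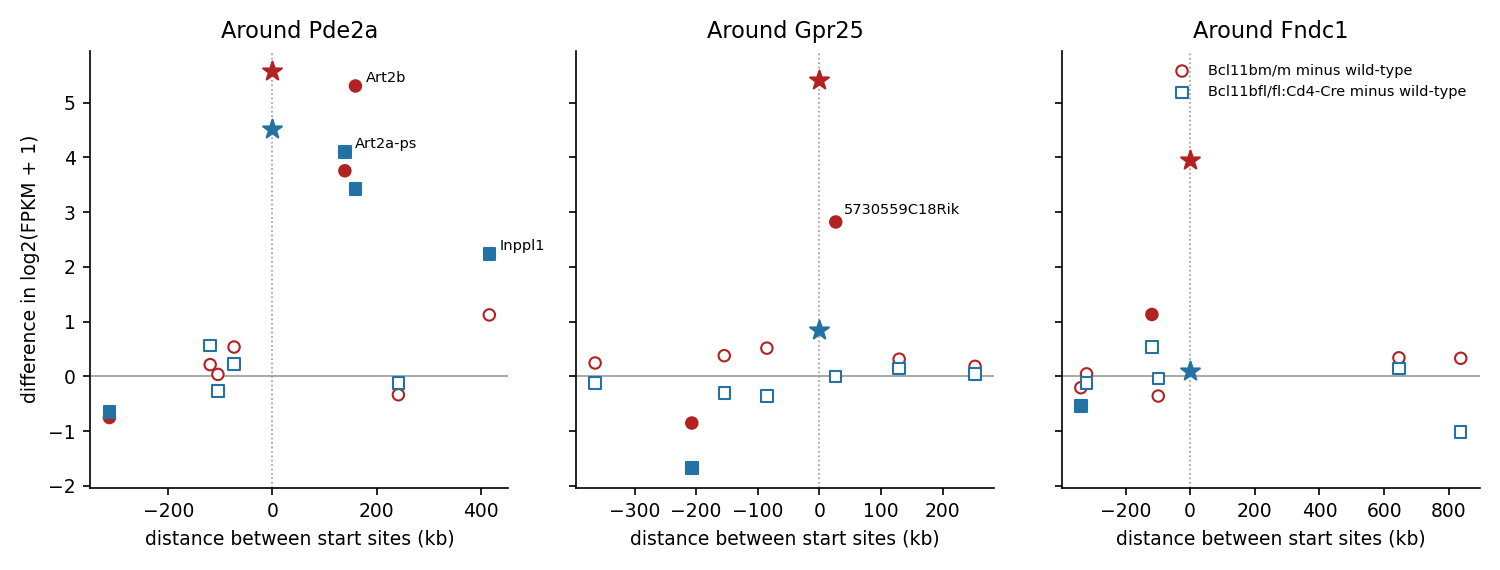
Difference in log2(FPKM + 1) from wild-type for neighbouring genes that passed the filter, by the signed distance in kb between their start site and that of Pde2a, Gpr25 or Fndc1 (stars), along the direction of transcription. Circles are Bcl11bm/m and squares Bcl11bfl/fl:Cd4-Cre, filled where the adjusted p was under 0.05. Art2a-ps and Art2b beside Pde2a were called in both mutants. 5730559C18Rik beside Gpr25, called in Bcl11bm/m only, passed the filter through those libraries alone.

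Other genes of cyclic nucleotide signalling were examined to set Pde2a beside its relatives. Of 23 listed phosphodiesterase genes other than Pde2a, 8 passed the filter. In Bcl11bm/m thymocytes 2 rose, 1 fell and 5 were not called, beside 9.92% of all features higher and 7.39% lower. The median difference was 0.09, beside -0.02 over all features. Pde3b, which is inhibited by cGMP, rose from a mean of 9.70 to 35.6 FPKM (1.79, adjusted p = 2.76e-04 by limma). Among the cAMP-specific enzymes, Pde4b rose from 13.1 to 40.9 FPKM (1.58, adjusted p = 4.91e-04 by limma) and Pde4d fell from 17.3 to 7.98 FPKM (-1.03, adjusted p = 8.61e-04 by limma). Pde2a, chosen for its levels in these groups, had 53.1 and 0.139 FPKM beside them. Pde4a, which did not pass the filter, had means of 0.107 FPKM in wild-type, 2.07 FPKM in Bcl11bm/m and 0.543 FPKM in Bcl11bfl/fl:Cd4-Cre thymocytes. After Cd4-Cre deletion 1 of the 8 was called, Pde1b (0.61, adjusted p = 0.0441 by limma), and this call was lost without the filter (adjusted p = 0.111 by limma) and under both scaling alternatives (0.0599 and 0.0585). It was also lost in 8 of 9 fits with a library left out. Over all features 4.65% were called higher and 9.86% lower in this comparison. Pde3b had 13.6 FPKM there and Pde4b 19.98 FPKM, and neither was called. Between the mutants Pde3b was higher (1.38, adjusted p = 0.0172 by limma, or 0.0579 without the filter) and Pde4d lower (-0.77, adjusted p = 0.0127 by limma) in Bcl11bm/m thymocytes. The Pde3b call was also lost in 3 of 7 fits with a library left out, and that of Pde4d without Bcl11bm/m replicate 2 (adjusted p = 0.0551 by limma).

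**Figure D5:**
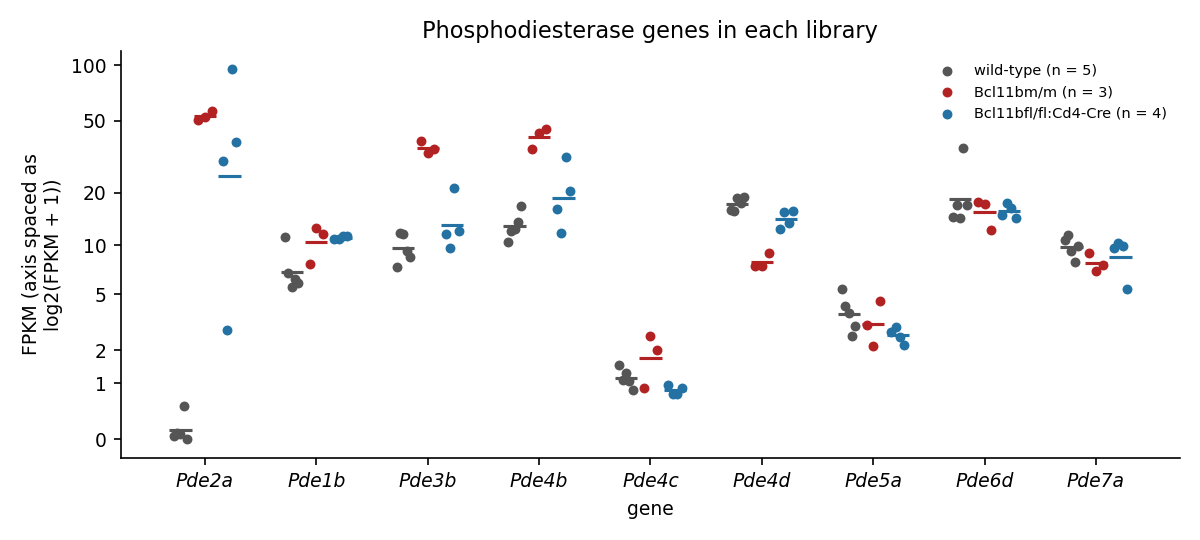
Level of Pde2a and of the 8 other phosphodiesterase genes that passed the filter, in each library (points) with the group mean on the log2 scale (lines); the vertical axis is FPKM, spaced as log2(FPKM + 1). Pde3b and Pde4b are higher and Pde4d is lower in Bcl11bm/m thymocytes. Of the genes shown, Pde2a alone is near 0 in wild-type and high in both mutants.

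Of 42 listed genes of cyclic nucleotide synthesis and response, 22 passed the filter. In Bcl11bm/m thymocytes 4 rose and 4 fell, and in Bcl11bfl/fl:Cd4-Cre thymocytes 3 rose and 4 fell. Over all features 9.92% were called higher and 7.39% lower in the former, and 4.65% and 9.86% in the latter. The medians of the list were 0.10 and 0.02, beside -0.02 and -0.09 over all features. Adcy7, an adenylyl cyclase of haematopoietic cells, rose in both (1.30 and 1.27, adjusted p = 0.0214 and 0.0190 by limma), and Adcy6 fell in Bcl11bm/m thymocytes from 41.0 to 17.0 FPKM (-1.19, adjusted p = 0.0154 by limma). Without the filter these calls were lost (adjusted p = 0.0720, 0.0773 and 0.0554 by limma). Rapgef3, the cAMP-activated exchange factor EPAC1, rose from 35.2 to 94.3 FPKM with Bcl11bm/m and to 78.0 FPKM after Cd4-Cre deletion (1.44 and 1.16, adjusted p = 0.00365 and 0.00814 by limma). Prkar2a, a regulatory subunit of protein kinase A, had 0.9504 FPKM in wild-type, 4.27 FPKM in Bcl11bm/m (difference 1.46) and 0.903 FPKM in Bcl11bfl/fl:Cd4-Cre thymocytes. It passed the filter through the Bcl11bm/m libraries only, so its calls enter the counts but no p-value is given. The mutants differed directly in 2 of the 22 genes, both higher in Bcl11bm/m, a share near the 10.2% called over all features. These were Prkar2a (1.46) and Rapgef4, the exchange factor EPAC2 (0.91, adjusted p = 0.0261 by limma, or 0.0758 without the filter). The Rapgef4 call was also lost in 5 of 7 fits with a library left out. Akap1, an anchor of protein kinase A, and Crem, a cAMP-responsive factor, fell in both (-1.39 and -0.84 in Bcl11bm/m, -0.80 and -0.69 in Bcl11bfl/fl:Cd4-Cre). The latter pair of calls was lost without the filter (adjusted p = 0.0826 and 0.0733 by limma), and each in 6 of 9 fits with a library left out.

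To set Gpr25 beside its relatives, 45 listed genes were examined, made up of class A receptors of lymphocytes and Cxcl17, which has been proposed as a ligand of Gpr25. Of these 16 passed the filter, all of them receptors, and Gpr15 and Cxcl17 did not. In Bcl11bm/m thymocytes 6 rose and 2 fell, and in Bcl11bfl/fl:Cd4-Cre thymocytes 3 rose and 2 fell, beside 9.92% higher and 7.39% lower in the former and 4.65% and 9.86% in the latter over all features. The medians of these receptors were 0.39 and 0.34, beside -0.02 and -0.09. Gpr183, the receptor for oxysterols that guides lymphocyte position, rose from 0.357 to 7.69 FPKM in Bcl11bm/m and 7.54 FPKM in Bcl11bfl/fl:Cd4-Cre thymocytes (2.70 and 2.57, adjusted p = 3.5e-05 and 0.00160 by limma). Gpr18 rose from 0.265 to 7.62 and 2.08 FPKM (2.65 and 1.16, adjusted p = 9.2e-04 and 0.0347 by limma, the second 0.107 without the filter). Ptger4, the prostaglandin E2 receptor EP4 that raises cAMP, fell from 16.3 to 2.85 FPKM in Bcl11bm/m and 9.35 FPKM in Bcl11bfl/fl:Cd4-Cre thymocytes (-2.14 and -0.74, adjusted p = 2.91e-04 and 0.0410 by limma, the second 0.120 without the filter), and was lower in the former mutant when both were compared (-1.40, adjusted p = 0.0111 by limma). The Bcl11bfl/fl:Cd4-Cre calls of Gpr18 and Ptger4 were also lost in 5 and 7 of 9 fits with a library left out. Quantile normalization removed that of Gpr18 too (adjusted p = 0.0773 by limma). Hrh2 (1.33) and Gpr65 (1.12), both coupled to cAMP formation, also rose in Bcl11bm/m thymocytes. In the direct comparison, where 7.63% of all features were higher and 2.6% lower in Bcl11bm/m, 1 of the 16 receptors was lower, Ptger4, and 1 was higher, Lpar5 (1.01, adjusted p = 0.0415 by limma, or 0.118 without the filter and 0.0564 and 0.0734 under the scaling alternatives). Its difference, in the direction of that of Gpr25, came with means of 3.93 and 1.51 FPKM. The Lpar5 call was also lost in 6 of 7 fits with a library left out.

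For Fndc1, 41 listed genes of G protein subunits and activators of G protein signalling were examined, of which 26 passed the filter. In Bcl11bm/m thymocytes 4 rose and 3 fell, and in Bcl11bfl/fl:Cd4-Cre thymocytes 3 rose and 1 fell. The shares over all features were 9.92% higher and 7.39% lower in the former and 4.65% and 9.86% in the latter. The medians were 0.01 and -0.18, beside -0.02 and -0.09. Among the βγ subunits, Gng2 rose from 2.24 to 9.50 FPKM in Bcl11bm/m (1.73, adjusted p = 0.00202 by limma) and to 5.23 FPKM in Bcl11bfl/fl:Cd4-Cre thymocytes (0.93, adjusted p = 0.0345 by limma, or 0.111 without the filter). Gng10 rose in Bcl11bm/m thymocytes from 14.2 to 38.2 FPKM (1.49, adjusted p = 0.0257 by limma, or 0.0873 without the filter) and Gnb4 fell from 3.76 to 0.865 FPKM (-1.30, adjusted p = 0.00780 by limma). The Bcl11bfl/fl:Cd4-Cre call of Gng2 was also lost in 6 of 9 fits with a library left out. That of Gng10 in Bcl11bm/m was lost in 4 of 8. In the direct comparison 4 of the 26 genes were higher in Bcl11bm/m and 2 lower, beside 7.63% and 2.6% of all features, among them Gng10 and Gnb4 (1.56 and -1.72, adjusted p = 0.00212 and 0.0121 by limma, the second 0.0514 without Bcl11bm/m replicate 2). Gpsm1, also called AGS3, rose in both mutants (1.46 and 0.88, adjusted p = 7.45e-04 and 0.0182 by limma, the second 0.0620 without the filter). Rgs14 fell in Bcl11bm/m (-0.94), and Gpsm2 fell in both (-0.76 and -1.07). Of 33 genes with fibronectin type III domains other than Fndc1, 6 passed the filter and a single one was called in any comparison, Ptprc, which encodes CD45 (0.43 in Bcl11bm/m, adjusted p = 0.0364 by limma). Over all features 17.3% were called in that comparison, so this count is near the background. The call of Ptprc was lost under median-ratio scaling (0.0810), quantile normalization (0.0619) and a single fit of all groups (0.0756), and in 7 of 8 fits with a library left out. Fibronectin itself, Fn1, had group means of at most 0.0104 FPKM.
Of 14 genes of tissue-resident T cells, listed because Gpr25 is known from such cells, 6 passed the filter. In Bcl11bm/m thymocytes 1 rose and 1 fell, with a median of -0.05, and in Bcl11bfl/fl:Cd4-Cre thymocytes 1 rose and 2 fell, with a median of -0.36. Over all features 9.92% were higher and 7.39% lower in the former, and 4.65% and 9.86% in the latter, with medians of -0.02 and -0.09. Runx3 rose in both mutants (1.82 and 2.11, adjusted p = 0.00437 and 0.00581 by limma). Nr4a1 fell in Bcl11bm/m thymocytes (-1.94, adjusted p = 2.81e-04 by limma), and Cd69 and Icos fell in Bcl11bfl/fl:Cd4-Cre thymocytes (-1.46 and -0.89, adjusted p = 0.0356 and 0.0221 by limma). Both calls were lost without the filter (adjusted p = 0.125 and 0.0771 by limma), and in 6 and 4 of 9 fits with a library left out. Itgae and Itga1, integrins of resident cells, did not pass the filter.

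Markers of other cells that the sorted fraction could hold were summed. Fndc1 is known from fibroblasts and Pde2a from endothelium. Of 10 fibroblast markers, Col3a1, Dcn, Lum and Mfap5 were listed at 0 in all 12 libraries, and 1 of the 10, Pdgfrb, was higher in every Bcl11bm/m than in every wild-type library, as were 14.6% of all features tested. Its level was 2.27 to 5.96 against 0.234 to 1.67 FPKM, with 3.33 to 12.7 FPKM in Bcl11bfl/fl:Cd4-Cre libraries. The sum over the 10 genes, nearly all of it Thy1, which thymocytes express, was 1304 to 1883 FPKM in wild-type, 1139 to 1221 FPKM in Bcl11bm/m and 1102 to 1397 FPKM in Bcl11bfl/fl:Cd4-Cre libraries. Of 10 endothelial markers, Emcn and Cldn5 were listed at 0 in all libraries and Cdh5 reached at most 0.0966 FPKM. The endothelial sum was 38.2 to 64.1 FPKM in wild-type, 143 to 163 FPKM in Bcl11bm/m and 81.5 to 128 FPKM in Bcl11bfl/fl:Cd4-Cre libraries, nearly all of it Pecam1, which lymphocytes also express.
The summed level of 11 myeloid and dendritic cell markers was 11.3 to 18.3 FPKM in wild-type libraries and 119, 49.1 and 37.8 FPKM in Bcl11bm/m replicates 1 to 3, the same order as Gpr25 and Fndc1, with 7 of the 11 genes above every wild-type library, beside 14.6% of all features tested. The sums for mature thymocytes, double-negative thymocytes, B cells, endothelium and thymic epithelium had this order among the Bcl11bm/m libraries too. The same sum in replicates 1 to 4 of Bcl11bfl/fl:Cd4-Cre was 16.6, 4.09, 52.5 and 13.2 FPKM. Replicate 3 of that group had a higher myeloid sum than Bcl11bm/m replicates 2 and 3, with 1.81 FPKM of Gpr25 and 0.212 FPKM of Fndc1. Pde2a was likewise highest in replicate 3 and lowest in replicate 2. The part of myeloid cells in the levels of the 3 genes was not tested. The sum of 8 mature thymocyte markers was 80.5 to 149 FPKM in wild-type and 367 to 535 FPKM in Bcl11bm/m libraries, with 7 of the 8 genes above every wild-type library (14.6% of all features tested). After Cd4-Cre deletion it was 196, 127, 354 and 156 FPKM in replicates 1 to 4, again highest in replicate 3 and lowest in replicate 2. The sum of 8 double-negative thymocyte markers was 65.3 to 101 FPKM in wild-type, 134 to 299 FPKM in Bcl11bm/m and 71.3 to 255 FPKM in Bcl11bfl/fl:Cd4-Cre libraries, with 5 of the 8 genes above every wild-type library in Bcl11bm/m (14.6% of all features tested). For 10 markers of NK, innate lymphoid and γδ T cells it was 0.806 to 1.53, 111 to 159 and 4.80 to 67.7 FPKM. In Bcl11bm/m libraries nearly all of it was Cd163l1 and 5830411N06Rik, and these 2 lay above every wild-type library. Of the 5 markers that passed the filter 3 were called higher in Bcl11bm/m, beside 9.92% of all features, with a median difference of 1.83. They include Cd163l1 and 5830411N06Rik, which were near 0 in wild-type and passed the filter through the mutant libraries only. The count is therefore a description. B cell and thymic epithelial sums overlapped between the genotypes. Markers of pre-selection DP thymocytes summed to 5319 to 7065 FPKM in wild-type, 3849 to 4337 FPKM in Bcl11bm/m and 3566 to 5814 FPKM in Bcl11bfl/fl:Cd4-Cre libraries. Markers of the labelled cell type were thus present in each library, but at a lower level in Bcl11bm/m. Of these 10 markers 6 were called lower and 0 higher in Bcl11bm/m (median -0.72), beside 7.39% of all features lower. In Bcl11bfl/fl:Cd4-Cre 2 were lower and 0 higher (median -0.54), beside 9.86% lower. The sort was for CD24hiTCRβlo CD4+CD8+ cells. How pure the sort was is not given in the sources used here. The part of mature, double-negative and innate cells in the levels of Pde2a, Gpr25 and Fndc1 was not tested.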

How the data were processed

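RNA-seq of 12 libraries was analysed. The authors mapped reads with TopHat2 (2.8.0 in the submitters' processing notes) on mm9 and deposited FPKM per gene and library, made with Cufflinks 2.1.1 on the iGenome annotation, with no scaling between libraries stated. The paper's methods describe a strand-specific kit and the label protocol another kit and population, so the chemistry is uncertain and reads of overlapping genes may not be separable. Gene positions are those of GENCODE vM1 (NCBIM37), where 21665 symbols had a match.

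Groups came from the sample titles. Whether replicates are separate animals is stated only for the groups as a whole, and p-values measure the spread between these libraries. log2(FPKM + 1) of 10780 features averaging 1 FPKM or more was compared with limma 3.58.1 in R 4.3.3 (2 groups per fit, trended eBayes, two-sided, Benjamini-Hochberg over all features, threshold 0.05). Python 3.11.15 with pandas 2.3.3, numpy 2.4.6, scipy 1.17.1 and matplotlib 3.10.9 did the rest. On simulated data, 200 genes changed by 1.5 were recovered at 87% (Bcl11bfl/fl:Cd4-Cre against wild-type), 80% (Bcl11bm/m against wild-type) and 84.5% (the mutants), with 4.40%, 6.43% and 3.43% false calls.

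Fragments were estimated from steps between low FPKM values, of which 64.4 to 70.7% lay within 0.1 of a whole multiple (20% if evenly spread), and a share this low does not allow a count test. Depth and fragment numbers thus bear an unknown error.

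Named genes were Pde2a, Gpr25 and Fndc1, up to 5 called genes per list and comparison by size of the difference, the 5 listed neighbours on each side, and the 5 features with the highest Pearson correlation. Gene lists, genes and limits were chosen with earlier results of these data known. Fes, Cd160 and Cd163l1 among the genes of like pattern, and genes given as not passing the filter, were named after their values were seen. Alternatives were a pseudocount of 0.1, no filter, a filter at 5 FPKM, quantile normalization, median-ratio scaling, library quality weights, a replicate block, a single fit of all groups, leaving out each library and Spearman correlation. ChIP-seq and ATAC-seq were not used here.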

Additional observations from a re-analysis of the deposited data

Results flagged for a closer look

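The search covered 75 groups of 4 or 5 libraries for 38 named genes. In 7, the gap of a library to the others was large relative to the range of its group. No number by chance is set beside this, since several groups lay near the floor, where values rest on few fragments. Pde2a was listed at 0.5068 FPKM in wild-type replicate 4, where the other wild-type libraries had 0 to 0.0839 FPKM, and this library held 8 of the 12 fragments estimated for the group. Fndc1 was listed at 0.0286 FPKM in wild-type replicate 2, an estimated 1 fragment, and at 0 in the others. Zbtb7b was listed at 0.2155 FPKM in wild-type replicate 3, with 0 to 0.0471 FPKM in the others. The same library had 0.9399 FPKM of Art2b, a neighbour of Pde2a, with 0 to 0.242 FPKM in the others. Fes was listed at 0.2807 FPKM in wild-type replicate 1 (others 0.189 to 0.196 FPKM). In Bcl11bfl/fl:Cd4-Cre replicate 3, Fes was listed at 1.7551 FPKM (others 0.462 to 0.517 FPKM), and Rnaset2a, a distant neighbour of Fndc1, at 110.439 FPKM (others 88.1 to 91.3 FPKM).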

How the results depend on the processing

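No difference on the log2 scale reported for Pde2a, Gpr25 or Fndc1 changed direction under any alternative run, and the cause of the changes below was not tested unless named. In Bcl11bfl/fl:Cd4-Cre against wild-type, the difference of Pde2a was 4.45 to 6.96 with all libraries and 3.89 to 5.44 with a library left out. For Fndc1, at the floor of the scale in both groups, the difference was 0.01 to 0.65, or 0.04 to 0.13 with a library left out, and no test is given. The difference of Gpr25 lay between 0.66 and 1.02 with a library left out and between 0.77 and 1.42 otherwise. Values within these ranges included 0.93, 0.85 (a single fit of all groups) and 1.02. The wild-type libraries entered the choice of Gpr25, so no test of its difference is given here either.

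A pseudocount of 0.1, which compresses low values less, gave differences from wild-type of 8.12, 6.43 and 7.13 for Pde2a, Gpr25 and Fndc1 in Bcl11bm/m, and between the mutants of 5.01 for Gpr25 and 6.47 for Fndc1. With a library left out, Bcl11bm/m differed from wild-type by 5.54 to 5.69 for Pde2a, 5.15 to 5.57 for Gpr25 and 3.72 to 4.13 for Fndc1. The mutants then differed by 0.14 to 1.69, 4.29 to 4.75 and 3.62 to 4.03. In an alternative chosen after seeing the data, the Bcl11bfl/fl:Cd4-Cre mean as a share of the Bcl11bm/m mean, with a Bcl11bfl/fl:Cd4-Cre library left out, was 44.5 to 103% for Pde2a (44.5% without replicate 3, and 103%, so that the means changed order, without replicate 2), 2.42 to 3.46% for Gpr25 and 0.236 to 0.674% for Fndc1 (0.236% without replicate 3).

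Features called numbered 1564 in Bcl11bfl/fl:Cd4-Cre against wild-type (796 with no filter, 3176 with library quality weights), 1866 in Bcl11bm/m against wild-type (1189 with the filter at 5 FPKM, which tests fewer features, 3604 with weights) and 1102 between the mutants (656 and 2173). With a library left out they numbered 700 to 2678, 1021 to 2349 and 313 to 1121. Those that moved the counts by over 1.5 times were, in the first comparison, Bcl11bfl/fl:Cd4-Cre replicates 1, 3 and 4 (700, 778, 773) and wild-type replicates 1, 2 and 5 (2678, 938, 865). In the second they were Bcl11bm/m replicates 1 and 2 (1225, 1021), and between the mutants Bcl11bm/m replicates 2 and 3 (327, 313) and Bcl11bfl/fl:Cd4-Cre replicates 1, 2 and 4 (392, 649, 711). The replicate block gave 445, 293 and 46 features, but deviations of same-numbered libraries correlated at -0.21 to 0.15, so the numbers do not pair the libraries.

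Of the named neighbours and list genes called, 10 of 24 in Bcl11bfl/fl:Cd4-Cre, 23 of 27 in Bcl11bm/m and 9 of 15 between the mutants kept their call under all unblocked alternatives with every library. In Bcl11bm/m the exceptions were Adcy6, Adcy7, Gng10 and Ptprc. Between the mutants they were Gnaq, Inppl1, Lpar5, Pde3b, Rapgef4 and Rsph3a. In Bcl11bfl/fl:Cd4-Cre the genes kept were Art2a-ps, Fchsd2, Gna11, Gpr183, Gpsm2, Inppl1, Kif14, Prkar2b, Rapgef3 and Runx3, of which Gna11 and Prkar2b lost it in 6 and 2 of 9 fits with a library left out. In the block 14, 17 and 13 lost their call and 0 changed direction. Shallow Bcl11bm/m libraries limit what 1 fragment can show there, and wild-type levels of Pde2a and Fndc1 rest on 12 and 1 fragments.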
